A study of Mus musculus with 6 samples.

Results

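R1 mouse embryonic stem cells (ES) were compared with fibroblasts taken at E13.5 from embryos of OG2 mice (OG2-MEF), which carry a green fluorescent protein transgene under the Oct4 promoter. The comparison took 4 of the 6 Illumina bead arrays of the series by their titles, 2 ES and 2 OG2-MEF, and covered every probe of the deposited table of 25697. The other 2 arrays hold pluripotent cells induced with recombinant proteins (piPSC); they share the scaling and the estimate of spread, and their signals are given only where they show how a probe behaves on a further array. Per the labels' protocols, ES cells grew on feeder layers of irradiated fibroblasts in medium with serum and leukemia inhibitory factor (LIF), so RNA of the ES group can hold RNA of feeder cells. The OG2-MEF are primary cells of whole-embryo preparations, and no drug or gene transfer is named for either group. Each array received cRNA amplified from 500 ng of total RNA. Replicates are titled biological, with no word on separate cultures, so the p-values rest on a spread between samples that may be technical.

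ES cells are held in a self-renewing, undifferentiated state by a network of transcription factors around Oct4 (gene Pou5f1), Sox2 and Nanog, which bind many of the same enhancers, often at a composite site where Oct4 and Sox2 sit side by side. They grow as tight colonies joined by E-cadherin and divide fast. Embryonic fibroblasts are spread mesenchymal cells that build actin stress fibres, secrete collagen matrix and keep the Hox code of the body position they come from. Smooth-muscle type actin genes in such cells are driven by serum response factor, which binds CArG boxes, and by TEAD factors.

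The promoters of 4 genes are shown. Nanog and Pou5f1, of the pluripotency network, were higher in ES. Acta2 and Vcl, of the contractile fibroblast, were lower in ES but had bright probes in both groups. Each is the RefSeq window in build GRCm38.p6 around an annotated transcription start, mostly upstream of it, read 5′ to 3′ along the gene. Capitals mark matches to the motif named below for that gene, searched on both strands. Matches to the motifs of the other genes were not marked, and the Vcl window also holds GGAATG and GGGCGG in lower case.
Nanog, chr6:122707239-122707538, plus strand: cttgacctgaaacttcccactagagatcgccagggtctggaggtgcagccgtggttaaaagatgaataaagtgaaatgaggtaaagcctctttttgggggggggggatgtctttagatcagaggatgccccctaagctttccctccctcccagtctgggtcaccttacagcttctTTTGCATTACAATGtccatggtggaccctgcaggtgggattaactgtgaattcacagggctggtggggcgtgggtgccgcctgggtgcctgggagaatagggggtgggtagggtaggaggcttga
Pou5f1, chr17:35505782-35506081, plus strand: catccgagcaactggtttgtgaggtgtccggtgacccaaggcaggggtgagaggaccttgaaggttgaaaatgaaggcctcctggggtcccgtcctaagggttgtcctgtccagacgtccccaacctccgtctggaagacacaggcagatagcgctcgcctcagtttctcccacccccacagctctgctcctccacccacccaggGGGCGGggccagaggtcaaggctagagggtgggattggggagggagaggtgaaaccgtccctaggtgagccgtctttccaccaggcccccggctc
Acta2, chr19:34255324-34255623, minus strand: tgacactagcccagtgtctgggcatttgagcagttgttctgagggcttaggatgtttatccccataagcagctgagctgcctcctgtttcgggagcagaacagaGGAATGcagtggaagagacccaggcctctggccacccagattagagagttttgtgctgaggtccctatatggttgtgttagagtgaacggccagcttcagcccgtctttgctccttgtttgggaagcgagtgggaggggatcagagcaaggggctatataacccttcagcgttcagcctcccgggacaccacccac
Vcl, chr14:20929148-20929447, plus strand: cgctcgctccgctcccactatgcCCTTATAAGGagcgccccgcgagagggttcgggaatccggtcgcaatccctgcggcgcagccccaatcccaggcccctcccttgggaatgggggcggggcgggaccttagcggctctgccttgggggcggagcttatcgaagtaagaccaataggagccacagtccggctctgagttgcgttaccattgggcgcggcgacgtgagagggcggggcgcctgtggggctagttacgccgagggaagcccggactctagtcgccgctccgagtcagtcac

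The Nanog window holds on its minus strand the composite Oct-Sox motif, the Sox letters CATTGT and the octamer letters ATGCAAA with any 1 base (N) between them, 75 bases before the start. Of the 32851 promoter windows searched, 2 hold these letters (0.00609%), and both are windows of Nanog. The Pou5f1 window holds the GC box GGGCGG, present in 35.7% of all windows, and the Acta2 window holds GGAATG, the core of the M-CAT element bound by TEAD factors, present in 14.7%. The Vcl window was chosen for its CArG box (CC, then 6 bases that are A or T, then GG) after a motif search, and 1.63% of windows hold one. These matches describe the letters in the windows and say nothing about binding in these cells. Tagln is named below without a promoter.

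Signals are given as normalised log2 signals. A probe counted as detected on an array where its detection p was under 0.05, and 14077 probes detected on both ES or both OG2-MEF arrays were tested with limma. Changed means an adjusted p below 0.05 together with a difference of 2-fold or more. The ES arrays had less total signal (14076530 and 13019817) than the OG2-MEF arrays (19393092 and 19598206), and the share of probes detected was 50.71% and 46.87% on ES replicates 1 and 2 and 51.24% and 51.2% for OG2-MEF. Precision is limited by the small number of arrays.

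The labelled cell types were set against their markers. All 9 ES markers measured were higher in ES, and 6 of them were detected on neither OG2-MEF array. Of 13 fibroblast markers, 9 were lower in ES and 2, Dcn and Lum, were higher. Both encode small proteoglycans of the matrix, and Dcn lay at 12.86 and 12.67 in ES against 9.34 and 9.28 in OG2-MEF. Both ES arrays detected 11 of the 13. The summed linear signal of all 13 in ES was 39.5% (replicate 1) and 33.9% (replicate 2) of the OG2-MEF mean, and the share of it that comes from feeder cells was not tested. Dcn alone made up much of this sum, and without it the shares were 21% and 17.6%. Of 10 macrophage markers, 1 was detected on both ES arrays and 5 on both OG2-MEF arrays, while Ptprc, Tyrobp and Itgam were detected on none of the 4. Of 9 endothelial markers, 5 were detected on both ES arrays and 4 on both OG2-MEF arrays, while Cdh5, Kdr and Tie1 were detected on none. The part of such cells in the results was not tested. In bulk RNA, fewer cells of a type and less RNA per cell cannot be told apart.

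The ES pair differed from each other far more than the OG2-MEF pair did. ES replicate 2 lay over 2-fold below ES replicate 1 at 907 of 14077 probes (6.44%) and over 2-fold above it at 39 (0.277%). Between the OG2-MEF arrays these counts were 0 and 2. At 324 probes the fall exceeded 4-fold and at 24 it exceeded 16-fold. The SD of the difference between replicates over probes was 0.645 for ES and 0.194 for OG2-MEF, and Pearson's r across probes, which are not independent replicates, was 0.9648 and 0.9967. The scatter is one-sided: a cloud of probes hangs below the diagonal of the ES pair, and nothing like it appears in the OG2-MEF pair.

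**Figure D1:**
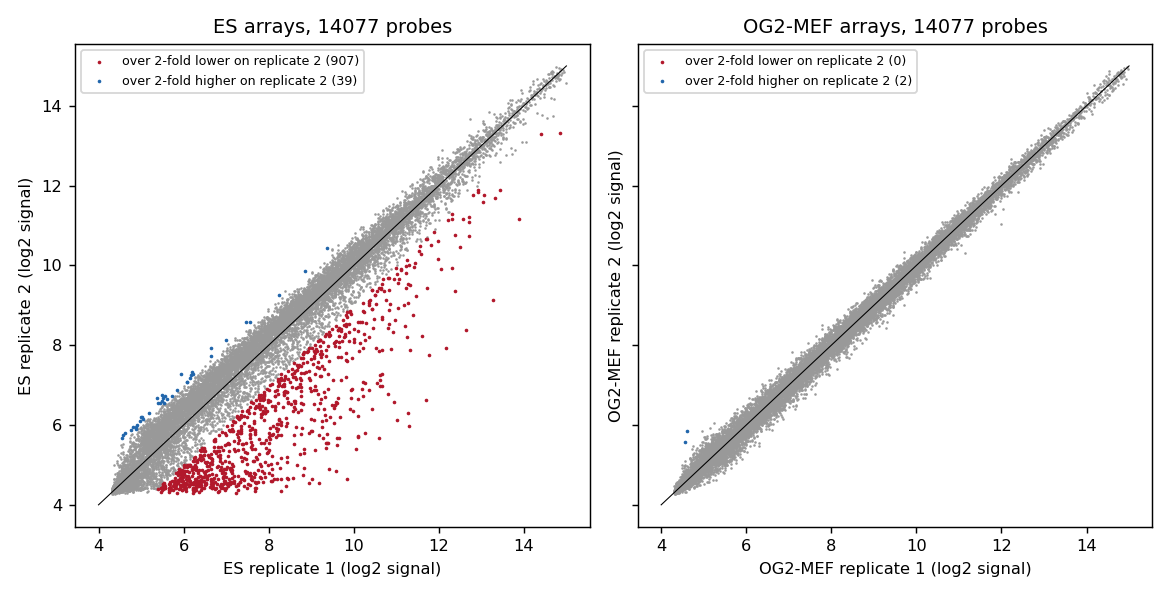
Normalised log2 signal of replicate 2 (vertical axis) against replicate 1 (horizontal axis) for the ES arrays (left) and the OG2-MEF arrays (right), 1 point per probe tested. Red points lie over 2-fold lower on replicate 2, 907 for ES and 0 for OG2-MEF, and blue points over 2-fold higher, 39 and 2. The black line marks equal signal.

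The falling probes were mostly of middle brightness. They made up 1.97% of probes under a log2 signal of 6 on ES replicate 1, 11% between 6 and 8, 8.11% between 8 and 10, 5.16% between 10 and 12, and 2.83% from 12 up. A probe near background has little room for a 2-fold fall, so the share under 6 does not show that dim probes were spared. Their median signal was 7.84 on ES replicate 1 and 5.75 on ES replicate 2, against 8.56 and 8.49 for OG2-MEF and 8.61 and 8.60 for piPSC. ES replicate 1 also lay below the other groups at part of them: over 2-fold below all 4 OG2-MEF and piPSC arrays at 135 of the 907 (14.9%), against 336 of the other 13170 probes (2.55%). ES replicate 2 no longer detected 378 of the 907. The set was chosen by the fall itself, so these values describe it and test nothing.

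The 10 deepest falls, 1 probe per gene, are given with both ES arrays. A probe of Eif3b, a subunit of translation initiation factor 3, read 11.29 on ES replicate 1 and 5.97 on ES replicate 2, with 11.72 and 11.64 in OG2-MEF. Pfkp, a phosphofructokinase of glycolysis, read 9.85 and 4.65 in ES and 9.38 and 9.51 in OG2-MEF. On ES replicate 1 both probes lay within 2-fold of the fibroblasts, so the difference between the groups came from replicate 2 and passed no test (adjusted p = 0.12 for Eif3b and 0.23 for Pfkp). Pou5f1 was hit in 1 of its 2 probes: the falling probe read 11.71 and 6.63 in ES and 4.72 and 5.04 in OG2-MEF, and the other 13.44 and 12.60 against 4.41 and 4.51. Both Pou5f1 probes were higher in ES, the falling one by 4.29 (SE 1.48, adjusted p = 0.039) and the other by at least 257-fold (adjusted p = 6.3e-06). Without OG2-MEF replicate 1 or 2 the call of the falling probe was lost (adjusted p = 0.15 and 0.13). The chaperonin gene Cct3 showed the same split: 1 probe read 11.27 and 6.29 in ES, and the other 13.66 and 13.44. Srm (10.59 and 5.67), Msto1 (9.59 and 4.86), Mcm3 (10.05 and 5.40), Cdk2 (9.18 and 4.55), Smyd5 (9.41 and 4.91) and Sparc (10.26 and 5.80) complete the 10 largest falls. Of these genes, Pfkp, Cdk2 and Smyd5 had another probe that was lower in ES without a fall, by 1.68 (SE 0.21), by 1.48 (SE 0.15) and by at least 2.48-fold. Cdk2 was, however, higher by 1.39 at its brightest probe, and a further Cdk2 probe differed by 0.86, short of 2-fold. The other probes of Srm differed by 0.62 (SE 0.14) and 0.08 (SE 0.19), short of 2-fold, as did that of Eif3b (-0.86, SE 0.31). Sparc was lower by 2.38 (SE 0.33) at its other probe, which also fell (12.93 and 11.85), and Msto1 and Mcm3 had none. For Mcm3, a subunit of the replicative helicase, the direction against OG2-MEF (8.76 and 8.35) depended on the ES array, higher on replicate 1 and lower on replicate 2.

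Of 768 genes with a falling probe, 505 had another probe tested. No other probe fell over 2-fold in 426 of them, another fell but not all did in 47, and all probes fell in 32. Beside the deepest fall of each gene, 92 of 805 other probes fell (11.4%), against 6.44% of all probes tested, and their median change from ES replicate 1 to replicate 2 was -0.03. For the 473 genes with a steady probe, the brightest steady probe was set beside the falling one; it was chosen for not falling, so what follows describes the calls and tests nothing. The median difference between ES and OG2-MEF was -1.35 at the falling probe and 0.31 at the steady one. Of 204 such genes whose falling probe was called lower in ES, the steady probe was lower for 66, not changed for 123 and higher for 15. Of 251 whose falling probe was not called, the steady probe was higher for 92 and lower for 10. All 18 with a falling probe called higher had the steady probe higher too. For comparison, 24.2% of all probes tested were lower in ES and 23.9% higher.

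Over all 14077 probes, 6774 changed (48.1%), with 3366 higher in ES (23.9%) and 3408 lower (24.2%). Groups were also required to stand apart array by array, with the lowest array of the brighter group at least 2-fold above the highest array of the dimmer one. That held for 2714 probes higher in ES (19.3%) and 2753 lower (19.6%). With arrays scaled to the same median in place of quantiles, the changed probes split into 2682 higher and 4054 lower, and those apart array by array into 2151 and 3412. Falling probes took 42 of the higher and 408 of the lower calls. Among the falling probes 45% were called lower, against 22.8% of the others, and their median SE was 0.5 against 0.16. Changes of at least 16-fold were seen at 226 probes higher and 205 lower, and of at least 64-fold at 50 higher and 18 lower. The ES arrays both detected 1047 probes that neither OG2-MEF array did, and the reverse held for 1400.

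**Figure D2:**
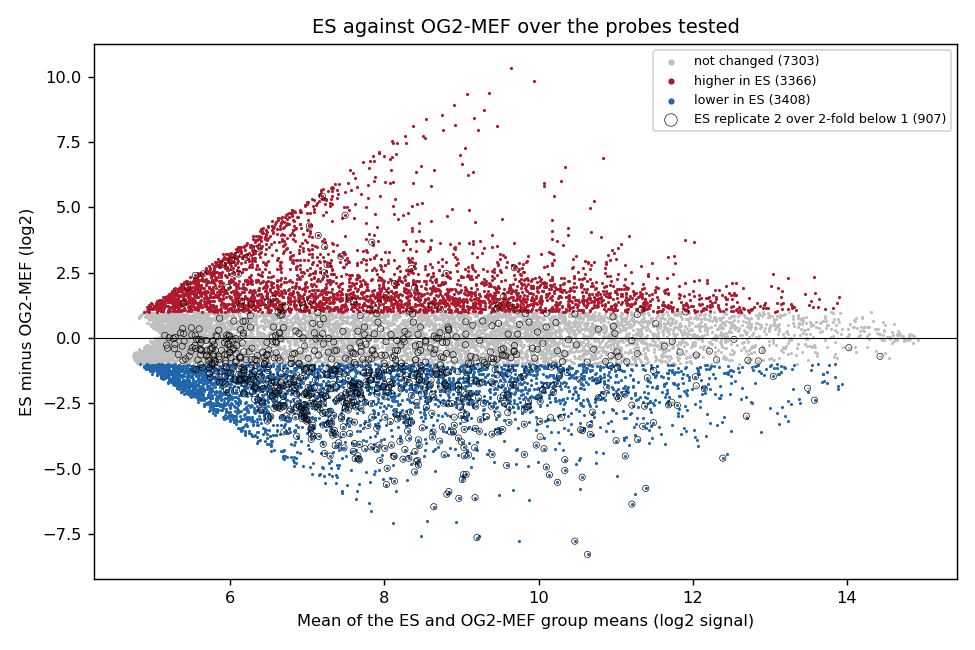
Difference between the ES and OG2-MEF group means on the log2 scale (vertical axis) against the mean of both group means (horizontal axis), 1 point per probe tested. Of 14077 probes 3366 were higher in ES (red) and 3408 lower (blue), and open circles mark the 907 probes that lay over 2-fold lower on ES replicate 2 than on replicate 1, which gather below 0.

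The 10 probes whose lowest ES array lay farthest above the highest OG2-MEF array belonged to Dppa5a, Esrrb, Fbxo15, Trh, Rhox5, Nanog, Pou5f1, Dppa4, Sall4 and Wfdc2. A fold is written as "at least" where neither array of the dimmer group detected the probe: the dim group is then set, per array, at the higher of its own signal and the lowest detected signal, and the fitted change is no bound. Dppa5a, an RNA-binding protein gene of early embryos, read 14.83 and 14.80 in ES against 4.45 and 4.52 in OG2-MEF on its widest probe, at least 891-fold (adjusted p = 1.7e-06). Rhox5, an X-linked homeobox gene, read 13.61 and 13.70 against 4.89 and 4.95, at least 400-fold (adjusted p = 1.9e-06). Wfdc2, a secreted protease inhibitor gene, read 12.35 on both ES arrays against 4.71 and 4.67, at least 161-fold. In each of these genes the ES arrays differed by under 0.1 and the groups lay at opposite ends of the scale.

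On the fibroblast side the 10 widest separations belonged to Col2a1, Rpl29, Thbs1, Cxcl12, Gjb2, Acta2, Dlk1, Myl1, Phgdh and Tnfrsf11b. Cxcl12, the chemokine that retains blood and germ cells, was lower at each of its 3 tested probes, by 7.09 (SE 0.14), 6.33 (SE 0.17) and 5.79 (SE 0.15) on the log2 scale, and the first and second of these by at least 89-fold and 55-fold, since neither ES array detected them. Gjb2, a gap junction connexin, read 5.15 and 4.96 in ES against 12.08 and 12.03 in OG2-MEF (log2 fold change -7.00, SE 0.16, adjusted p = 3e-06). Tnfrsf11b, the decoy receptor osteoprotegerin, read 6.58 and 6.94 against 13.11 and 12.86 (-6.22, SE 0.20). A probe of Rpl29, a ribosomal protein gene, read 4.91 and 4.43 in ES and 12.24 and 12.30 in OG2-MEF, at least 137-fold lower, and 11.87 and 11.63 on the piPSC arrays. The other Rpl29 probe read 12.53 and 12.55 in ES against 12.99 and 13.12, a difference of -0.52 (SE 0.12) that did not reach 2-fold. Phgdh, the entry enzyme of serine synthesis, was read by a single probe at 4.57 and 4.53 in ES, 10.82 and 10.58 in OG2-MEF and 8.38 and 8.06 in piPSC, at least 46-fold lower in ES.

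**Figure D3:**
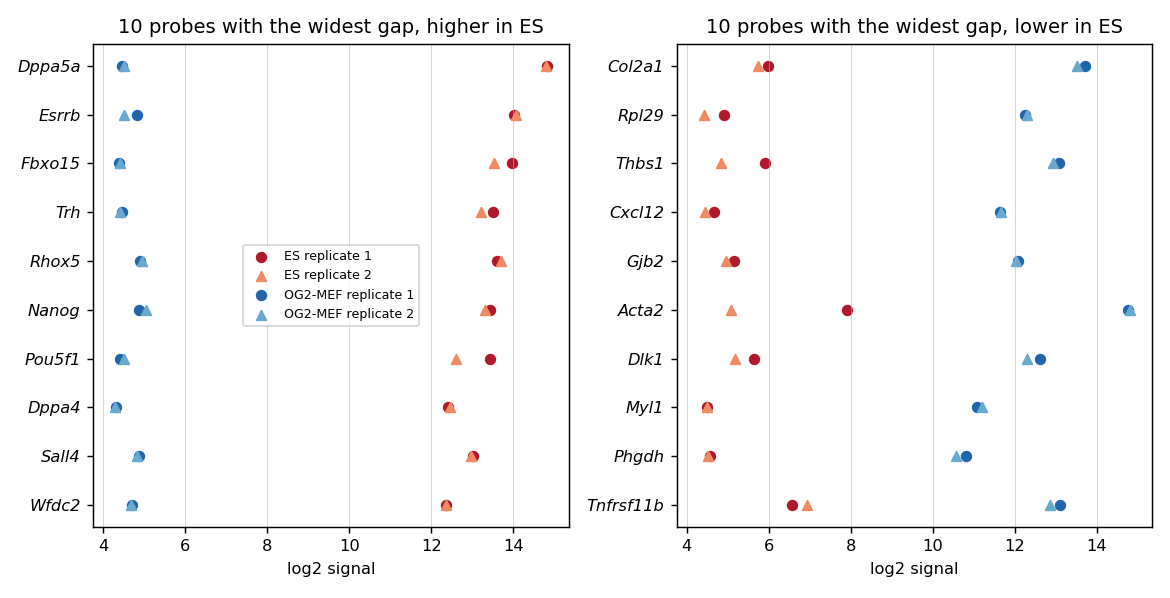
Normalised log2 signal (horizontal axis) on each of the 4 arrays for the 10 probes with the widest gap between groups in each direction, higher in ES (left) and lower in ES (right). Red and orange marks are ES replicates 1 and 2, dark and light blue marks OG2-MEF replicates 1 and 2. The ES marks lie farthest apart for Acta2 (7.91 and 5.08), Thbs1 (5.91 and 4.85) and Pou5f1 (13.44 and 12.60).

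Different probes of 1 gene often gave different answers. Of 2569 genes with several probes tested, 1540 had the same call at all of them, 943 had called and uncalled probes, and 86 (3.35%) had a probe higher and another lower in ES. The difference between groups spanned over 2 on the log2 scale among the probes of 465 of these genes (18.1%). On the same probes and against the same OG2-MEF arrays, piPSC gave 7 genes with opposed probes (0.272%) and 98 with such a span (3.81%). Of 1038 genes with a probe lower in ES, all probes were lower in 394 (38%), and of 788 with a probe higher, all were higher in 317 (40.2%). For piPSC these shares were 400 of 709 (56.4%) and 302 of 606 (49.8%).

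A set of probes was dim on both ES arrays and bright on all others. At 122 probes both ES arrays lay over 4-fold below each OG2-MEF and piPSC array, and at 9 probes both lay over 4-fold above them. Among the 122 were the only probes of Phgdh and Thbs1 and both tested probes of Gnas. Of 83 genes with another probe outside the 122, the brightest such probe was lower in ES for 23, not changed for 47 and higher for 13. Over all probes tested, 24.2% were lower and 23.9% higher. Prmt5, an arginine methyltransferase, was higher at 2 probes (by 1.97, SE 0.12, and 1.56, SE 0.16) and at least 4.38-fold lower at the third of its probes, which read 4.54 and 4.80 in ES. Cdc20, an activator of the anaphase-promoting complex, was higher at 2 probes by 1.71 and 1.10 (SE 0.12 each), and lower at another, which read 5.32 and 4.69 in ES and 8.59 and 8.40 in OG2-MEF. Nop2, a nucleolar RNA methyltransferase, was higher at 2 probes (1.19 and 1.17) and at least 9.34-fold lower at 1. At the lower probes of these 3 genes the ES arrays differed by 0.26, 0.63 and 0.12.

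Actb, the cytoplasmic actin used as a loading control, had 5 probes and all possible answers. The probe with the highest mean read 14.54 and 14.62 in ES and 14.56 and 14.52 in OG2-MEF, a difference of 0.04 (SE 0.13), and another differed by -0.01 (SE 0.22). Another pair of probes read 13.19 and 13.85, and 12.74 and 13.66, in ES, but 4.95 and 5.85, and 4.61 and 5.85, in OG2-MEF, so they were higher in ES by 8.12 (SE 0.44) and 7.96 (SE 0.55). The fifth probe read 9.82 and 7.21 in ES against 14.23 and 14.32, lower by 5.76 (SE 0.77, adjusted p = 0.00086). On the piPSC arrays the pair read 7.26 to 8.44 and the fifth 12.64 and 12.86, between the other groups in both cases. Ppp1ca, a phosphatase catalytic subunit, did not reach 2-fold at 2 probes (0.34 and 0.28), while the third read 10.10 and 5.71 in ES against 13.17 and 13.28, lower by 5.33 (SE 1.28). What sets these probes apart was not tested. Position of a probe along its transcript was not used here.

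**Figure D4:**
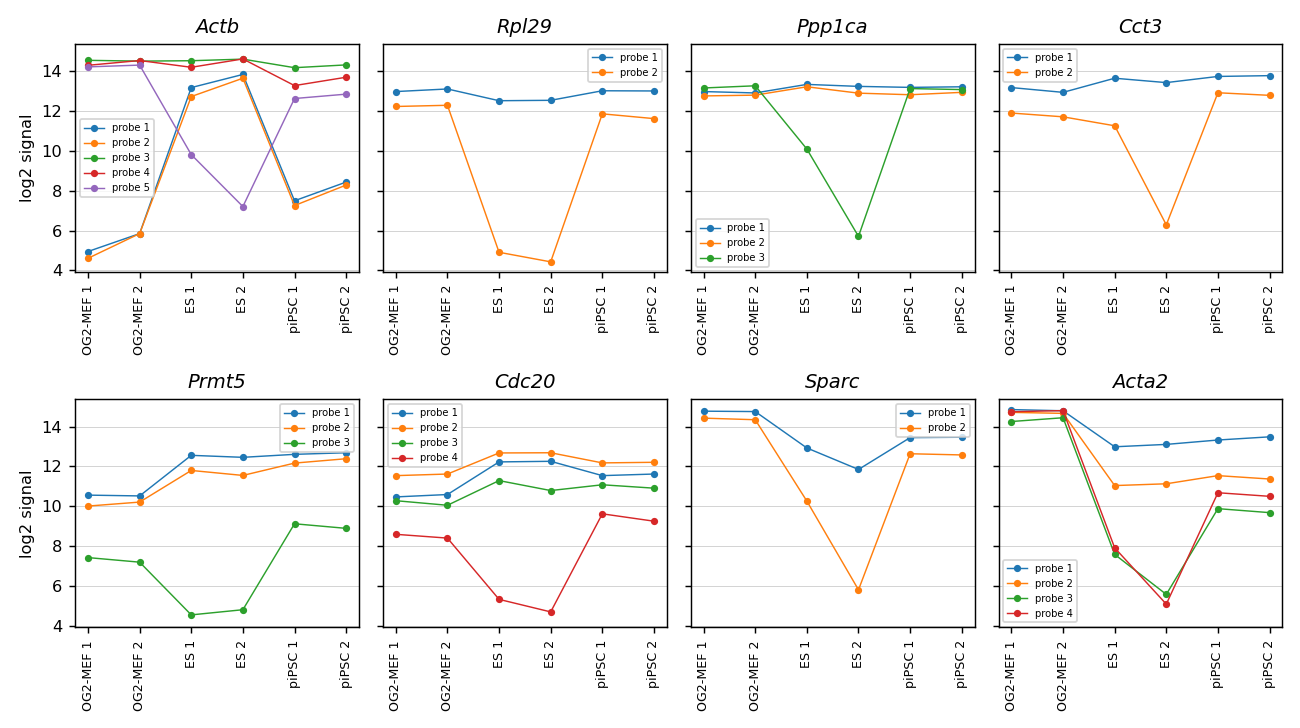
Normalised log2 signal (vertical axis) of every tested probe of 8 genes on the 6 arrays (horizontal axis), 1 line per probe, numbered from the highest to the lowest difference between ES and OG2-MEF. Some probes drop on both ES arrays while others of the same gene stay level, as for Rpl29 (12.53 and 12.55 at probe 1, 4.91 and 4.43 at probe 2), and the Actb probes move in opposite directions.

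For gene groups each gene was represented by its brightest tested probe, by mean over the ES and OG2-MEF arrays, which gave 9675 genes. Of these 4623 changed (47.8%): 2492 were higher (25.8%) and 2131 lower (22%) in ES, with a median log2 fold change of 0.15, and the counts below are to be read against these shares. The lists were chosen with earlier results of these data known, so their counts are descriptions. They cover tested genes only, among them 11 of 19 germ cell genes on the array, 8 of 12 trophoblast, 8 of 15 endoderm and 22 of 38 Hox genes. A gene detected in only 1 group passed the filter through that group, so its direction was largely set in advance. Of 351 list genes called, 95 had another probe tested. Another probe gave the opposite call for 4 (Mcm6, Cdk2, Ruvbl1 and Nop2). Of the rest, at least 1 other probe gave the same call for 80, and none did for 11. With undetected genes at their bound, the list medians given below became 4.53 for ES cell markers, 2.51 for germ cell, 2.42 for trophoblast, 1.17 for endothelial, -0.46 for endoderm and -0.68 for macrophage genes.

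**Figure D5:**
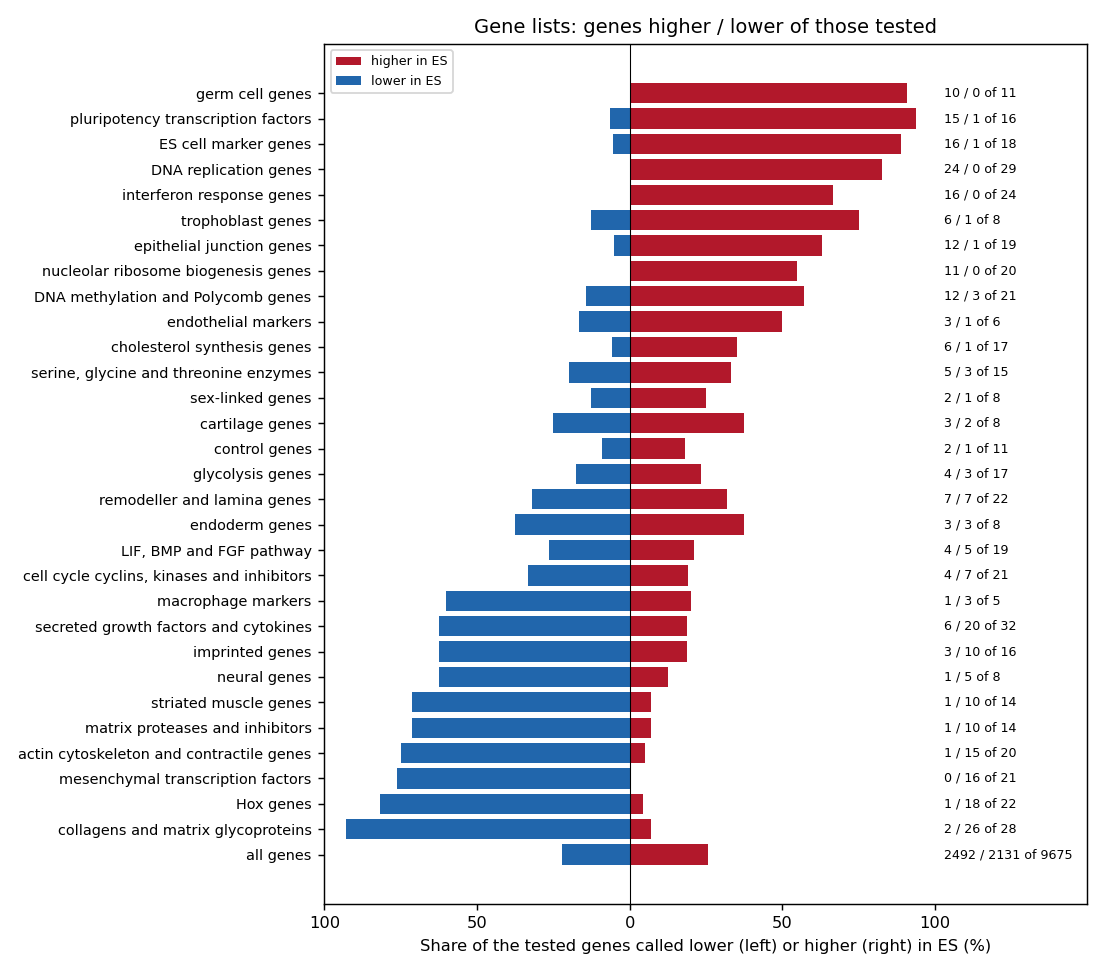
Share of the tested genes of each list called higher (red, to the right) or lower (blue, to the left) in ES than in OG2-MEF, in percent, with the counts printed at the right. All genes tested are the bottom bar, with 2492 higher and 2131 lower of 9675. Germ cell, pluripotency and replication genes reach far to the right, and collagens, Hox genes and mesenchymal factors far to the left.

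Pluripotency transcription factors were higher in 15 of 16 (median 4.94, or 4.73 with undetected genes at their bound), and Myc was the 1 lower. All 7 members with further probes had the same call at 1 or more of them. Sox2 read 9.51 and 9.61 in ES against 4.41 and 4.44, at least 23.3-fold higher (adjusted p = 9.6e-06). Klf4 was high in both cell types and higher in ES, at 11.64 and 11.58 against 8.79 and 8.66 (2.88, SE 0.12), and its other 2 probes gave 2.69 (SE 0.37) and 2.66 (SE 0.47). Nr5a2, an orphan nuclear receptor that can replace Oct4 in reprogramming, was at least 88.7-fold higher, Tcl1, an Akt coactivator, at least 72.6-fold, and Klf2 and Klf5 rose by 3.89 and 2.47. Zfp42 (Rex1) was higher on both ES arrays but uneven, at 11.20 and 8.48 against 5.46 and 4.82. Myc, a transcription factor of the original reprogramming set, read 5.91 and 4.50 in ES against 7.71 and 7.53 (-2.41, SE 0.45, adjusted p = 0.0035) on a single falling probe. On ES replicate 1 alone Myc was 1.71 lower.

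ES cell marker genes were higher in 16 of 18 (median 5.06), with Fut4 lower and Pim2 not changed. They included the Nodal co-receptor Tdgf1 (at least 36.3-fold), the TGF-beta family member Gdf3 (at least 113-fold), the Nodal antagonists Lefty2 (at least 9.29-fold) and Lefty1 (1.27), the let-7 blocker Lin28a (at least 33-fold), the constitutively active Ras Eras (at least 28.5-fold) and tissue-nonspecific alkaline phosphatase Alpl (5.42). Of the LIF, BMP and FGF pathway genes, 4 of 19 were higher and 5 lower (median -0.49). The LIF receptor Lifr rose by 1.41 and its feedback inhibitor Socs3 was higher at 11.68 and 11.90 against 8.49 and 8.48 (3.30, SE 0.13), while Stat3 (0.28) and Jak1 (-0.27) did not reach 2-fold. A falling probe of Stat3 was lower by 2.62 (SE 0.74). The BMP targets Id1 and Id2 were lower by 1.02 and 1.54, and Fgfr2 was at least 2.92-fold lower. Fgfr1 was lower by 2.69 (SE 0.55) on a falling probe, by 1.78 on ES replicate 1 and 3.60 on ES replicate 2. Lif itself was lower in ES by 1.02, and the ES medium contained added LIF.

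Genes of the fibroblast matrix were lower in nearly every case. Among collagens and matrix glycoproteins, 26 of 28 were lower and 2 higher (median -2.42), the latter Dcn (3.45) and Lum (1.79). Col1a1, the main chain of interstitial collagen, read 12.15 and 11.53 in ES against 14.59 and 14.37 (-2.64, SE 0.23). Eln, elastin, was detected on neither ES array (4.57 and 4.53 against 9.89 and 9.66) and was at least 24.2-fold lower. Tnc, tenascin-C, read 10.17 and 10.26 against 14.70 and 14.62 (-4.44, SE 0.12), and Loxl2, which cross-links collagen, 6.50 and 6.93 against 11.35 and 11.06 (-4.49, SE 0.19). The groups stood at least 2-fold apart array by array in each of these, as they did at 38.8% of all probes tested. Matrix proteases and inhibitors were lower in 10 of 14 and higher in 1 (median -1.50). Plau, urokinase, was lower by 4.95 (SE 0.16), Timp3 by 3.79 (SE 0.15) and the membrane protease Mmp14 by 3.43 (SE 0.14), whereas the stromelysin gene Mmp3 read 11.16 and 11.02 in ES against 7.44 and 7.32 (3.71, SE 0.16).

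Actin cytoskeleton and contractile genes were lower in 15 of 20 and higher in 1, the membrane linker Ezr (1.18), with a median of -2.17. The 8 with further probes were lower at each of them, though the sizes differed. Acta2, smooth muscle actin, was lower at all 4 probes: by 1.78 (SE 0.13), 3.61 (SE 0.13), 7.78 (SE 0.60) and 8.29 (SE 0.83), with ES signals of 12.99 and 13.11 at the first of these and 7.91 and 5.08 at the last. Tagln, an actin-bundling protein of smooth muscle, read 6.82 and 7.26 against 11.88 and 11.70 (-4.75, SE 0.18). Vcl, vinculin of focal adhesions, read 11.79 and 11.76 against 13.18 and 13.12 (-1.38, SE 0.13). In 4 of the 15 lower genes the probe fell over 2-fold between the ES arrays: Msn, Capn2, Actn4 and Capns1. The protease subunit Capn2 read 7.61 and 4.62 in ES at 1 probe and fell likewise at its other 2, with group differences from -6.14 to -5.98, so its probes pointed the same way.

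Transcription factors of mesenchyme were lower in 16 of 21 and higher in 0 (median -2.14). Foxc1 read 5.27 and 4.51 against 9.65 and 9.68 (-4.77, SE 0.25) and Foxc2 was lower by 4.06 (SE 0.24). Foxd1 was at least 7.17-fold lower, Runx1 lower by 3.20 (SE 0.12), and the regulators of epithelial-mesenchymal transition Snai1, Twist2 and Zeb2 by 3.13, 3.10 and 2.40. Hox genes were lower in 18 of 22 and higher in 1 (median -2.27), from anterior Hoxa2 (at least 5.86-fold) to posterior Hoxd10 (-1.88). Hoxa5 read 5.06 and 5.40 against 10.97 and 11.20 (-5.86, SE 0.17), and Hoxb6 (at least 14.5-fold), Hoxc6 (-3.56) and Hoxb2 (-3.55) followed. Hoxc13, a posterior gene, was the 1 higher, by 1.94. Epithelial junction genes moved the other way, higher in 12 of 19 and lower in 1, the keratin gene Krt19 (median 1.93). Cdh1, E-cadherin, read 10.51 and 10.57 against 4.69 and 4.82 (at least 46.1-fold), the tight-junction claudins Cldn6 and Cldn4 were higher by at least 19.7-fold and by 4.56, and the epithelial transcription factor Grhl2 by at least 12.3-fold. Krt8, a keratin of simple epithelia, rose by 4.23.

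Secreted growth factors and cytokines were lower in 20 of 32 and higher in 6 (median -1.67). Il11 read 6.29 and 6.66 in ES against 12.61 and 12.38 (-6.02, SE 0.18), Igfbp5 6.59 and 6.91 against 12.58 and 12.57 (-5.82, SE 0.16). Tgfb3, Ptn and Igfbp6 were lower by 4.33, 4.41 and 4.42. The neutrophil chemokine Cxcl1 stood on the other side, at 12.06 and 12.36 against 5.73 and 6.21 (6.24, SE 0.21), with Cxcl5 (at least 31.4-fold) and Ccl8 (at least 16-fold). The embryonic growth factor midkine, Mdk, rose by 2.39.

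DNA replication genes were higher in 24 of 29 and lower in 0 (median 2.03). Mcm2, of the replicative helicase, read 12.48 and 12.35 against 9.40 and 9.43 (3, SE 0.15), the clamp loader subunit Rfc5 rose by 2.93 (SE 0.13), Mcm10 by 2.93 (SE 0.17) and the licensing factor Cdt1 by 2.47 (SE 0.20). Of the 5 that did not pass, Mcm3 and Tyms were read by falling probes. Mcm6 was higher by 1.27 (SE 0.21) at its brightest probe and lower at others, by 2.62 (SE 0.15) and at least 1.11-fold. Cell cycle cyclins, kinases and inhibitors were higher in 4 of 21 and lower in 7 (median -0.75). Ccnd2 read 9.95 and 10.08 against 13.77 and 13.58 (-3.66, SE 0.15), and the CDK inhibitors Cdkn2b (-2.31), Cdkn1a (-2.16) and Cdkn2c (-1.58) were lower. Ccne2 was lower by 2.50 (SE 0.45) on a falling probe. Cdkn2a was higher by 1.99 at 1 probe, and its other probe differed by -1.18 (SE 0.55) without passing. Cdk2 was higher by 1.39 (SE 0.13) at its brightest probe and lower by 1.48 (SE 0.15) at another.

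DNA methylation and Polycomb genes were higher in 12 of 21 and lower in 3 (median 1.14). Dnmt3l, the cofactor of de novo methylation, read 11.66 on both ES arrays against 4.65 and 4.62 (at least 100-fold), Dnmt3b 12.84 and 12.97 against 7.41 and 7.57 (5.42, SE 0.13), and the Polycomb chromobox gene Cbx7 was at least 31.1-fold higher. The PRC2 subunits Mtf2, Eed, Suz12 and Ezh2 rose by 3.22, 2.75, 1.79 and 1.12 (Ezh2 on a falling probe, and by 2.16 at its other), while Bmi1 and Cbx8 were lower by 1.72 and 1.53. Rbbp7, a histone chaperone shared by several complexes, read 8.05 and 5.03 against 11.12 and 10.91 (-4.47, SE 0.89) on a falling probe. Its other probes were split. Falling ones differed by -4.11 and -4.99, and a steady one read 7.56 and 7.70 against 7.25 and 7.11 (0.45), short of 2-fold. Remodeller and lamina genes were split, 7 higher and 7 lower of 22 (median -0.32), and 3 of the 7 lower were read by falling probes: Emd, Smarcc1 and Chd1. Smarcc1 was short of 2-fold without ES replicate 2 (-0.96), and Smarcc1 and Emd were not called without OG2-MEF replicate 1 (adjusted p = 0.15 and 0.1) or 2 (0.15 and 0.094). The A-type lamin Lmna read 10.60 and 11.18 against 13.20 and 13.38 (-2.40, SE 0.21) and Sun2 was lower by 2.37, while the B-type lamins Lmnb1 and Lmnb2 and the receptor Lbr rose by 1.92, 1.41 and 1.12.

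Of glycolysis genes 4 of 17 were higher and 3 lower (median -0.22): the neuronal-type glucose transporter Slc2a3 read 13.40 and 13.28 against 8.05 and 8.15 (5.24, SE 0.13) and Aldoc was at least 14.5-fold higher, and Hk1 (-2.75, falling probe), Eno3 (-2.20) and Eno2 (-1.37) were lower. Of serine, glycine and threonine enzymes 5 of 15 were higher and 3 lower (median 0.03). Gldc, of the glycine cleavage system, read 13.21 and 13.37 against 7.20 and 7.38 (6, SE 0.14) and Cbs was at least 15.2-fold higher, while Psat1 was lower by 1.21. Phgdh was lower at its only probe, which belongs to the 122 probes dim on both ES arrays alone. Shmt1 was higher on a falling probe, at 10.26 and 7.06 against 5.76 and 5.93 (2.81, SE 0.94), a call lost without OG2-MEF replicate 1 or 2 (adjusted p = 0.14 and 0.12). Cholesterol synthesis genes were higher in 6 of 17 and lower in 1 (median 0.76), with Dhcr7 (2.93), Pmvk (2.24), Idi1 (1.84) and Tm7sf2 (1.49). Nucleolar ribosome biogenesis genes were higher in 11 of 20 and lower in 0 (median 1.08), among them Rrp9 (2.31), Polr1c (1.98), Ncl (1.66) and Gar1 (1.64).

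Among genes of other lineages, the germ cell, trophoblast, striated muscle and neural lists lay mostly on 1 side, and the other lists were more mixed. Of 19 germ cell genes on the array 11 were tested, and 10 of these were higher in ES and 0 lower (median 3.22). Tex19.1 read 12.46 and 12.30 against 4.70 and 4.55 (at least 165-fold), and Dppa3, Taf7l and Dazl were at least 17.6-fold, 11.5-fold and 36.5-fold higher. Trophoblast genes were higher in 6 of 8 and lower in 1 (median 3.02), with the factors Tfap2c (at least 90.1-fold) and Cdx2 (7.97 and 8.14 against 4.48 and 4.49, at least 8.23-fold) and Rhox9 (at least 16.8-fold). Cdx2 read 5.88 and 5.73 in piPSC and is among the 9 probes with both ES arrays over 4-fold above all others. Striated muscle genes were lower in 10 of 14 and higher in 1 (median -1.72): Acta1 read 5.75 and 6.45 against 11.10 and 11.32 (-5.11, SE 0.25), and Actc1 and Chrna1 were at least 26.3-fold and 6.71-fold lower. Myl1 was at least 62.4-fold lower at 1 probe and at least 1.2-fold at its other. Neural genes were lower in 5 of 8 and higher in 1 (median -1.36), led by the intermediate filament Nes (-4.89), Ncam1 (-4.58) and Dpysl3 (-2.78), with Stmn2 higher by 1.51.

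In the endoderm list 3 of 8 were higher and 3 lower (median -0.78): Apoe (5.04) and Lama1 (4) rose, and Dab2 and Lamb1 were lower by 3.43 and 2.31. In the cartilage list 3 of 8 were higher and 2 lower (median -0.06): Col2a1, of cartilage collagen, read 5.99 and 5.74 against 13.72 and 13.52 (-7.76, SE 0.15) and Sox9 was at least 2.33-fold lower, whereas Matn1 (at least 5.61-fold) and Col9a2 (1.36) were higher. The Col9a2 call was lost in the authors' matrix (0.89) and with an offset of 50 (0.82). Macrophage markers were higher in 1 of 5 and lower in 3 (median -1.50): Laptm5, a lysosomal membrane protein gene, read 13.22 and 13.09 against 8.08 and 8.28 (4.98, SE 0.15), and Lyz2 (-2.49), Cd14 (-2.22) and Fcer1g (at least 1.6-fold, with the call lost at an offset of 50) were lower, and Adgre1 differed by -0.06 (SE 0.19). Lyz2 was called at a falling probe and differed by 0.10 at its other. Endothelial markers were higher in 3 of 6 and lower in 1 (median 1.45): Tek (at least 8.01-fold), Vwf (at least 3.15-fold) and Egfl7 (2.46) were higher, and Emcn was at least 15.8-fold lower.

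Interferon response genes were higher in 16 of 24 and lower in 0 (median 1.88, or 1.34 with undetected genes at their bound). Ifitm1, which also marks early germ cells, read 9.98 and 10.31 against 4.53 and 4.48 (at least 35.1-fold), Oasl2 was at least 15-fold and the class I gene H2-D1 at least 6.02-fold higher, and Ifit3 read 9.77 and 9.49 against 6.07 on both OG2-MEF arrays (3.56, SE 0.15). Imprinted genes were lower in 10 of 16 and higher in 3 (median -1.72). The paternally expressed Dlk1 read 5.64 and 5.18 against 12.62 and 12.29 (-7.05, SE 0.21), Grb10 was lower by 3.56, Igf2 by 3.16 and Gnas by 5.88 (SE 0.77, falling probe), and at its other probe, detected on neither ES array, Gnas was at least 29.4-fold lower. Both Gnas probes belong to the 122 probes dim on both ES arrays alone. Phlda2 was higher by 3.48 (SE 0.15).

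Among sex-linked genes 2 of 8 were higher and 1 lower (median 0.12). Xist, the RNA of the inactive X, read 5.15 and 4.63 in ES against 9.22 and 9.21 in OG2-MEF (-4.33, SE 0.19). The Y-linked Eif2s3y read 10.38 and 10.44 against 8.20 and 8.24 (2.19, SE 0.12), so both OG2-MEF arrays carried signal of Xist and of a Y-linked gene. Ddx3x was higher by 1.04 (SE 0.18), and by 0.94 without ES replicate 2 and 0.85 without OG2-MEF replicate 1, both short of 2-fold. The Y-linked Kdm5d (-0.96, and called at -1.23 without ES replicate 2 and -1.03 without OG2-MEF replicate 2) and Uty (0.57) and the X-linked Kdm6a (0.40), Kdm5c (-0.16) and Eif2s3x (-0.15) did not pass. Of 11 control genes 2 were higher, Tfrc (1.21) and Eef1a1 (1.19, or 0.85 under median scaling and then not called), and 1 was lower, Gusb (-1.45). Gapdh (0.30), Hprt (0.55), Tbp (0.71), Rpl13a (0.44), B2m (-0.26) and Ywhaz (-0.08) did not reach 2-fold. Pgk1 was not called either, but its probe lay near background, at 4.50 on both ES arrays against 5.56 and 5.28. Neither ES array detected it, so it was at least 1.18-fold lower. The fitted Pgk1 difference was -0.92, or -1.02 without OG2-MEF replicate 2.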

How the data were processed

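Labelled RNA of 2 ES, 2 OG2-MEF and 2 piPSC samples had been hybridised to Illumina bead arrays. Per the file headers, the deposited table gave for each array a linear intensity of every probe, without normalization between arrays, and a detection p-value. The log2 values of the matrix deposited by the authors had a median of 5.89, and quantile normalization of the log2 intensities gave them back within 0.0012. Scanner software was not given in the sources used here. Background correction (normexp, by detection p-value), an offset of 16, quantile normalization over 6 arrays and log2 followed (neqc, limma 3.58.1, R 4.3.3). Symbols came from the array's annotation, updated through Entrez identifiers: 23978 probes had 1 symbol and 1719 none. All 3 groups were fitted together with lmFit and eBayes (3 residual and 2.94 prior degrees of freedom), and p-values were adjusted by Benjamini-Hochberg over the 14077 probes. Because the spread is shared between groups and the ES arrays differ most, p-values may be too small where only the ES arrays are uneven. The fit and the calls were also run on simulated arrays with known changes and symmetric noise. The one-sided fall of ES replicate 2 was not simulated, so that run says nothing about calls at falling probes.

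The members and the gene lists were chosen with earlier results of these data known. Genes were named by a rule: the 10 probes with the widest gap each way, up to 4 changed members per list with the largest change (all members of lists with up to 5 tested), the reprogramming factors, Nanog, the control and sex-linked genes, and the 10 largest falls between the ES arrays. Alternatives were another offset, scaling, filter, threshold, variance model and probe rule, leaving out each array, and the replicate block. Other list members and the probe examples (Actb, Rpl29, Ppp1ca, Prmt5, Cdc20, Nop2) were named after their values were seen.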

Additional observations from a re-analysis of the deposited data

How the results depend on the processing

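Some alternatives tested fewer features than the 14077 probes. With 1 probe per gene, 2494 of 9675 genes were higher (2056 apart array by array) and 2137 lower (1712 apart). With a gene's probes averaged, an alternative chosen after seeing the data, 2375 were higher (1950 apart) and 2200 lower (1760 apart). Of the 10328 probes detected on all 4 arrays, 2401 were higher (1874 apart) and 2071 lower (1614 apart). A 4-fold threshold left 1165 higher (902 apart) and 1485 lower (1084 apart). Leaving out 1 ES or OG2-MEF array in turn gave 3237 to 3701 higher and 3109 to 3697 lower, and 2834 to 3470 and 2801 to 3501 apart array by array; the arm with a lone array is then assumed to vary like the others. Leaving out the 907 falling probes, also chosen after seeing the data, gave 3324 higher and 3000 lower. Scaling to the same median moved the median difference over probes from 0.03 to -0.22 and the calls apart array by array from 2714 higher and 2753 lower to 2151 and 3412. Probes over 2-fold higher on ES replicate 2 numbered 39, against 4 in the authors' matrix, 2 with an offset of 50, 3 under median scaling and 65 with no detection filter. The probes over 2-fold lower numbered from 642 (offset 50) to 1015 (median scaling) over the same alternatives. The cause of these moves was not tested beyond what each setting does by construction. Among 151 values of named probes, leaving out ES replicate 2 reversed Mcm3 to 1.47 (adjusted p = 4.7e-05) and brought Smarcc1 (-0.96) and Ddx3x (0.94) under 2-fold, and without ES replicate 1 Mcm3 was -3.16 (adjusted p = 9.6e-08). Without ES replicate 1 the falling probes of Cct3, Cdk2, Eif3b, Msto1, Pfkp, Smyd5 and Srm were also called lower. The Srm probe was called without ES replicate 2 too (-1.31), and with array weights, the authors' matrix, the 4-array filter, median scaling, an offset of 50 and the replicate block; Cct3 and Eif3b were called with array weights (adjusted p = 0.025 and 0.032). The calls of Emd, Shmt1, Smarcc1 and the falling Pou5f1 probe were lost without OG2-MEF replicate 1 or 2, with an intensity trend and robust prior, with no detection filter and with only the 4 arrays fitted (adjusted p from 0.05 to 0.15). Shmt1 and that Pou5f1 probe were also lost under median scaling, the Pou5f1 probe with an offset of 50, Smarcc1 with probes averaged, and Actn4 with the trend (adjusted p = 0.051).

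The main fit did not treat samples with the same replicate number as pairs, and whether they share an effect was not tested. Differences between replicates correlated at 0.258 for OG2-MEF and ES, 0.001 for piPSC and ES and 0.079 for piPSC and OG2-MEF, and the labels give the groups no shared culture or day. With the replicate number as a block, 3367 probes were higher and 3431 lower.

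With 2 arrays per group, signal near background limits what can be read: undetected probes have only a bound.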

Other observations

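Genes of chromosome 17 had a median log2 difference between ES and OG2-MEF of 0.40 over 477 genes, with 31% higher and 15.5% lower, and those of chromosome 13 a median of -0.09 over 350 genes, with 18.9% higher and 27.1% lower. These were the highest and the lowest medians among the autosomes and the X chromosome. Each ES array set against the OG2-MEF mean gave medians of 0.33 and 0.49 for chromosome 17 and of -0.11 and -0.03 for chromosome 13. The median over all genes was 0.15, and the difference between chromosomes was not tested.

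Thumpd1, a gene on no list, read 11.15 and 11.01 in ES, 4.37 and 4.32 in OG2-MEF and 6.73 and 6.52 in piPSC. Sp5, a Wnt-responsive zinc finger gene, read 10.08 and 10.53 in ES, 4.43 and 4.40 in OG2-MEF and 8.06 and 7.99 in piPSC. Both were chosen after their values were seen, from the 9 probes with both ES arrays over 4-fold above all others.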
